A study of Mus musculus with 6 samples.

Results

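Of 34 genes of the p53 pathway chosen by name, 32 had a probe set on the arrays, each read from whichever of its probe sets had the highest mean log2(signal + 16) over the 6 arrays, among 18193 genes in all. Of these, 30 reached the level filter, a mean log2 level of 7.717, as did 61.6% of all genes (11208), and were tested with them, while Bbc3 and Trp73 lay below it. Trp53 itself and Bax were not analysed here. The RNA came from primary aortic endothelial cell cultures of mice labelled strain C57, either non-transgenic or transgenic for dominant negative human PPAR gamma (V290M) under the endothelial CDH5 promoter. PPAR gamma is a nuclear receptor that activates genes for the uptake and storage of lipid, and the V290M form interferes with it. Each group had 10 mice and 5 separate cultures of 2 pooled mice each, of which 3 cultures per group were arrayed, with no treatment in either group. Neither the age of the mice nor the passage of the cells is given in the sources used here.

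The protein p53 is a transcription factor that accumulates when DNA is damaged or growth signals are excessive, and its targets stop the cell cycle, repair DNA, alter metabolism or start apoptosis. Mdm2 marks p53 for degradation and is itself a p53 target, so that the pathway limits itself, and Mdm4 holds p53 inactive. In endothelial cells p53 is known for its part in growth arrest and senescence.

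RefSeq promoter windows (assembly GRCm38.p6, 250 bases before to 50 after an annotated start) were found for 24 of the 32 genes. They were searched for the 10-base decamer that is only part of a full p53 recognition site. This decamer reads the same on both strands in its degenerate letters. It occurred in a window of 9 of these 24 genes, against 9.55% of 27025 genes with a window. The genes had been chosen as known p53 genes, so this share describes the choice. The stretches of 5 genes are shown, because these genes cover negative feedback, cell cycle arrest, apoptosis and metabolism and differed from each other in direction, with the decamer in capitals and each written along the gene's own strand.
Cdkn1a, chr17:29090908-29090957, plus strand: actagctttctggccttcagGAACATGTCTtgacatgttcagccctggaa
Mdm2, chr10:117710915-117710964, minus strand: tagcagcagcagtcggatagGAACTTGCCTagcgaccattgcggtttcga
Siva1, chr12:112644590-112644639, plus strand: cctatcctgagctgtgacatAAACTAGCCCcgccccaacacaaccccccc
Ccng1, chr11:40755442-40755491, minus strand: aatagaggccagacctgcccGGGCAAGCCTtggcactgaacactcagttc
Sesn1, chr10:41887246-41887295, plus strand: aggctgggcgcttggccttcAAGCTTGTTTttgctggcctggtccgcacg
Some genes have several windows (32851 windows for 27025 genes). Distances are to the start of the window that held the decamer, which need not be the gene's main start. The decamer began 51 bases before that start in Cdkn1a, 186 in Mdm2, 218 in Siva1, 185 in Ccng1 and 173 in Sesn1. A further decamer in Cdkn1a began 73 bases before the same start. The other genes with one were Gadd45a, Ei24, Aen and Polk. The 6-base element TTTGAA, known from cell cycle genes that the p53 and p21 axis silences and searched on both strands, was found for Fas, Aen and Ercc5, 3 of 24, against 20.2% of all genes with a window.

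The 6 arrays did not fall cleanly into their groups. Transgenic culture 3 had a mean rank correlation of 0.972 with the non-transgenic arrays and of 0.907 with the other transgenic ones. Of 15 endothelial markers 6 lay above the level filter on average, Cdh5 and Pecam1 being below it, against 11 of 11 fibroblast markers. In transgenic culture 2, 8 of 11 leukocyte and macrophage markers exceeded the filter, against 2 or 3 in the other cultures. Their summed signal was 9204.3, 15537.2 and 2449.6 in transgenic cultures 1, 2 and 3, against 1619.5 to 2709.2 without the transgene. That of 6 adipocyte markers was 71912.3, 39931.9 and 39163.6 without the transgene against 36982.9, 20775.3 and 31170.9 with it, the groups not overlapping and transgenic culture 2 being lowest. Gapdh control probe sets at the 3' end were brighter than those at the 5' end by a factor of 1.59 ± 0.106 (SD, n = 3) without and 1.33 ± 0.121 with the transgene, a ratio that rises as transcripts shorten (two-sided exact permutation p = 0.1, the minimum for 3 against 3). For beta-actin this factor was 2 ± 0.17 without and 1.78 ± 0.407 with the transgene (two-sided exact permutation p = 0.5). It was highest in transgenic culture 3, at 2.21. The part of these differences in the values below was not tested. In bulk RNA of a culture, fewer cells of a type and less RNA per cell cannot be told apart.

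The comparison asked how the p53 pathway genes differed between cultures with and without the interfering receptor. Over all 3 transgenic cultures, the groups did not overlap for 16.7% of the 30 tested genes, near the 16.1% of all tested genes. Cultures 1 and 2 were also read alone, which sets aside the transgenic array most like the non-transgenic ones. This reading was not among those planned. In transgenic cultures 1 and 2, 4 of 7 tested growth arrest genes and 8 of 12 tested apoptosis genes lay above every non-transgenic culture. Over all 30 genes this was 15, against 22.8% of all tested genes. These counts include Plk3, Tnfrsf10b and Pidd1, which were tested only because the transgenic cultures were high. Trp53inp1, Mdm4, Sesn1 and the DNA repair genes Rrm2b, Xpc and Ercc5 lay below every non-transgenic culture. These 6 of 30 genes (20%) were a smaller share than the 27.4% of all tested genes. Transgenic culture 3 joined cultures 1 and 2 for 5 genes: Siva1, Fas and Tigar on the higher side, and Trp53inp1 and Rrm2b on the lower. None of the 30 genes passed the test across all genes: with limma and Benjamini-Hochberg adjustment at 0.05, 0 of 11208 genes (0%) were called, and 1288 (11.5%) had an unadjusted p under 0.05. Among the 30 genes 5 had such a p, of which Siva1, Tnfrsf10b and Cdkn2a were higher and Trp53inp1 and Rrm2b lower. Levels are log2(signal + 16), and each difference is the transgenic mean minus the non-transgenic mean on that scale, with limma's standard error (SE) over 3 cultures per group; for dim genes it understates the change.

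In counts, 20 of the 30 tested genes were higher and 10 lower, with a median difference of 0.20, where 47.5% of all tested genes were higher, 52.5% lower, and the median was -0.02. The median was 0.02 without transgenic culture 2. With each array centred on its own median, which moved the median of all genes by 0.269, 25 of the 30 were higher, and relative to all genes the median stayed at 0.223. That setting raised every difference by about this shift, so that Trp53inp1 was at -0.262, Rrm2b at -0.141, Mdm4 at -0.316 and Xpc at -0.132, and Siva1 at 0.907, Mdm2 at 0.622 and Cdkn1a at 0.576. For Plk3, Tnfrsf10b and Pidd1 the non-transgenic mean lay under the level filter, and these genes were tested only because the transgenic cultures were high. Of the other 27 genes 17 were higher, with a median of 0.04. The 3 transgenic values lay wholly above the 3 non-transgenic values for 3 of 30 genes (9.39% of all genes did so) and wholly below for 2 of 30 (6.72%). The count without overlap, 5 of 30, was thus near the 16.1% of all genes tested.

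**Figure D1:**
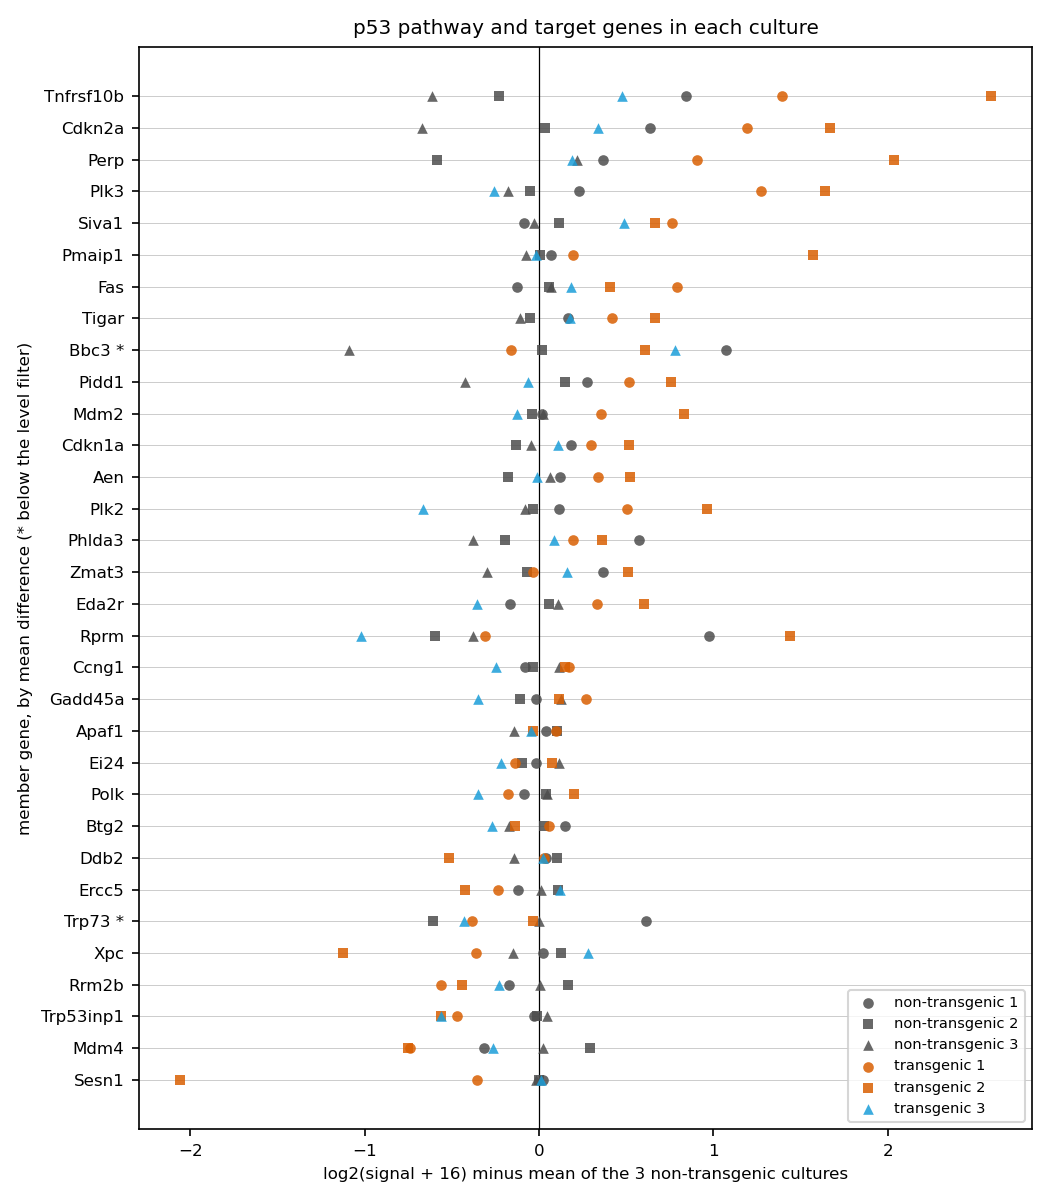
Each row is 1 of the 32 genes with a probe set, ordered by mean difference, and each point is 1 culture: its log2(signal + 16) minus the mean of the 3 non-transgenic cultures (grey). Transgenic cultures 1 and 2 (orange) lie together outside the non-transgenic range in 21 of the 30 tested genes, as in 50.2% of all tested genes. In the 15 genes where both lie above it, transgenic culture 3 (blue) is above it in 3, inside it in 7 and below it in 5. Trp53inp1 and Siva1 keep all 3 transgenic cultures together.

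Among the regulators, Trp53inp1, a p53-induced gene whose product assists p53 in the nucleus and takes part in autophagy, had the smallest standard error of the 30. Non-transgenic cultures 1, 2 and 3 were at 14.23, 14.24 and 14.30, and transgenic cultures 1, 2 and 3 at 13.79, 13.70 and 13.69; values below keep this order. All transgenic cultures, culture 3 included, lay below every non-transgenic one. The difference was -0.53 ± 0.10, a 1.44-fold lower level (limma adjusted p = 0.428), and it ran from -0.562 to -0.509 when each culture was left out in turn. Its dimmer probe set, at 9.30 on average, differed by -1.14 ± 0.37 and did not overlap either (limma adjusted p = 0.285 over all probe sets), and the mean of both probe sets differed by -0.838. This gene was known from an earlier look at the data as one of those with the smallest p, so its place here is no separate support.

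Mdm2, the ubiquitin ligase of the feedback loop, was at 13.17, 13.11 and 13.17 in the non-transgenic and at 13.50, 13.98 and 13.02 in the transgenic cultures. Cultures 1 and 2 were above and culture 3 below the whole non-transgenic range. The difference of 0.35 ± 0.23 was within the spread of the transgenic group (limma adjusted p = 0.533). A second, dimmer probe set placed the cultures in the same way, at 9.65, 9.86 and 9.58 against 10.67, 11.30 and 9.36.

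Mdm4, the inhibitor related to Mdm2, took the other direction. It was at 10.51, 11.12 and 10.85 against 10.09, 10.07 and 10.56, with culture 3 just inside the non-transgenic range, and differed by -0.58 ± 0.26 (limma adjusted p = 0.437). Of its 4 probe sets the next brightest, also above the filter, had the opposite sign at 0.07 ± 0.33, so above the filter the direction rests on the probe set used. Those below the filter differed by -0.22 ± 0.38 and -0.31 ± 0.36, each within its SE. The mean of all 4 differed by -0.258. Cdkn2a encodes p16, which restrains CDK4 and CDK6, and Arf, which restrains Mdm2. Its levels were 10.59, 9.98 and 9.28 against 11.14, 11.62 and 10.29. The difference was 1.07 ± 0.43, or 2.1-fold (limma adjusted p = 0.428), with non-transgenic culture 1 above transgenic culture 3. Which of the 2 products its probe set reads was not tested. Trp73, a p53 relative, lay below the filter on all 6 arrays, at 5.83 to 7.05.

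Among the cell cycle arrest genes, Cdkn1a encodes the CDK inhibitor p21 and is a classic p53 target. It was at 14.04, 13.73 and 13.82 in the non-transgenic and at 14.16, 14.38 and 13.97 in the transgenic cultures. Only culture 3 lay inside the non-transgenic range. The difference was 0.31 ± 0.14, or 1.24-fold (limma adjusted p = 0.442). The second probe set, dimmer, separated the groups fully: 11.32, 11.05 and 11.02 against 11.71, 12.25 and 11.64, a difference of 0.74 ± 0.22 (limma adjusted p = 0.277 over all probe sets). Both probe sets of Cdkn1a thus had the same direction, and on the dimmer one culture 3 stood with the other transgenic cultures.

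The polo-like kinases Plk2 and Plk3, stress-induced kinases that are p53 targets, divided the transgenic cultures. Plk3 was at 7.57, 7.29 and 7.16 against 8.62, 8.98 and 7.08. Plk2 was at 10.58, 10.44 and 10.39 against 10.97, 11.43 and 9.80. In both, cultures 1 and 2 were above and culture 3 below every non-transgenic culture. For Plk3 only cultures 1 and 2 exceeded the level filter of 7.717, so its test and its higher direction are tied to that filter. The differences were 0.89 ± 0.50 and 0.27 ± 0.40. That of Plk2 turned to -0.0825 without transgenic culture 2. Ccng1, the cyclin G1 gene, differed by 0.03 ± 0.13 on its brightest probe set and by 0.39 ± 0.26 and 0.80 ± 0.36 on the 2 others. On all 3 of these probe sets transgenic cultures 1 and 2 were above the non-transgenic range. Btg2, an antiproliferative gene, differed by -0.12 ± 0.19, a sign that turned with median-centred arrays. Gadd45a, a stress sensor, differed by 0.01 ± 0.21, a sign that turned with quantile normalization. Rprm, a G2 arrest gene, had an SD of 0.85 among the non-transgenic and of 1.27 among the transgenic cultures, against a difference of 0.04 ± 0.68.

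**Figure D2:**
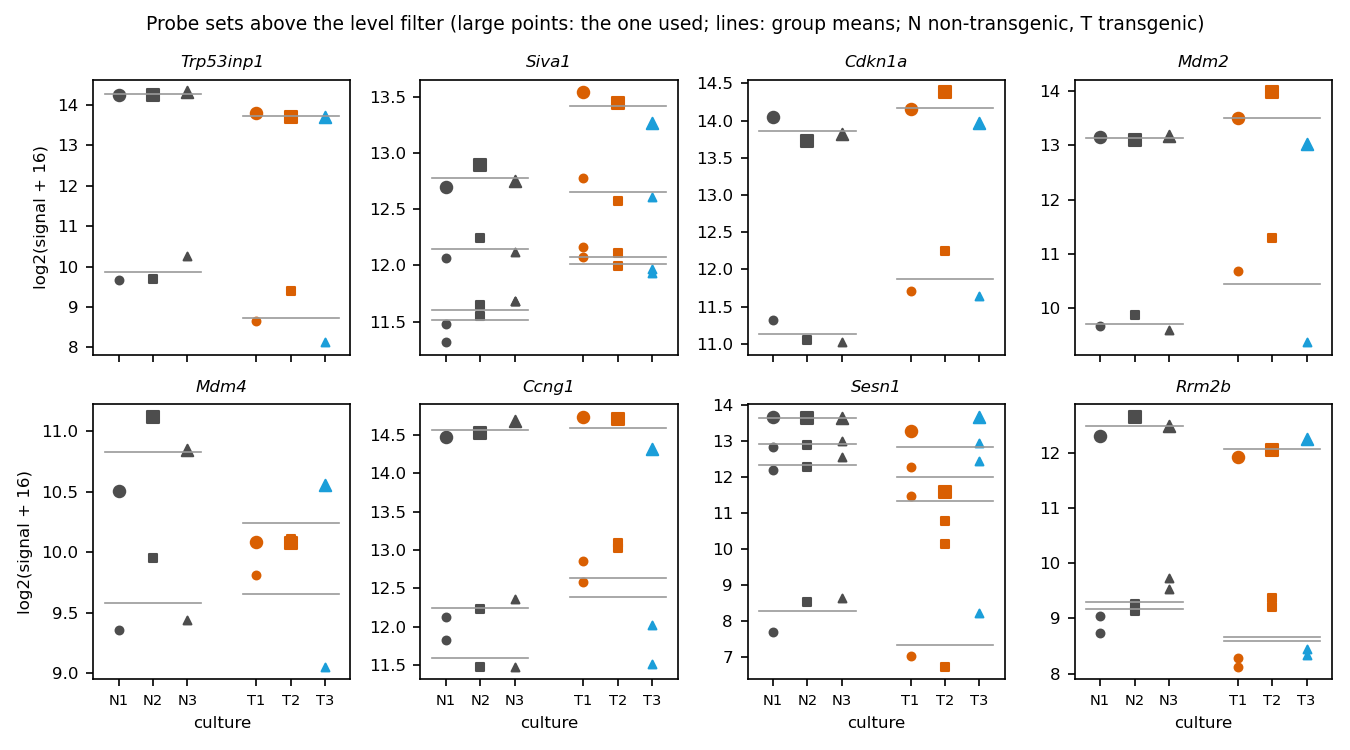
The y axes give log2(signal + 16) of every probe set above the level filter for 8 genes in the non-transgenic cultures N1 to N3 (grey) and the transgenic cultures T1 to T3 (orange, culture 3 blue); lines are group means over n = 3. All 4 probe sets of Siva1 and both of Trp53inp1 separate the groups, while in Mdm2 and Ccng1 culture 3 sits inside or below the non-transgenic range.

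Of the apoptosis genes, Siva1, a proapoptotic gene, had the smallest p. It was at 12.69, 12.89 and 12.75 in the non-transgenic and at 13.54, 13.45 and 13.27 in the transgenic cultures, so that no transgenic culture overlapped the others. The difference was 0.64 ± 0.13, or 1.56-fold (limma adjusted p = 0.428), and stayed between 0.578 and 0.713 with any 1 culture left out. Its 3 other probe sets differed by 0.50, 0.41 and 0.56, again without overlap. Siva1, too, had been known as a gene with a small p in these data. The probe set used carries the array's mark for probes shared with similar sequences, as does 1 of the others.

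The death receptor genes lay higher to different degrees. Fas, the receptor of Fas ligand, was at 11.14, 11.33 and 11.34 against 12.06, 11.68 and 11.45, all transgenic cultures above, a difference of 0.46 ± 0.21 (limma adjusted p = 0.442). Tnfrsf10b, the receptor of the ligand TRAIL, was at 8.22, 7.15 and 6.77 against 8.77, 9.97 and 7.85. Its non-transgenic culture 1 exceeded transgenic culture 3, and 2 of the 3 non-transgenic values, as well as their mean of 7.38, were below the level filter. The difference was 1.49 ± 0.60, or 2.8-fold (limma adjusted p = 0.428), the largest among the 30 genes. Eda2r, a receptor of the tumour necrosis factor family, differed by 0.19 ± 0.25, with culture 3 the lowest of all 6 at 11.89. Its sign turned without transgenic culture 2.

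Perp, a membrane protein of desmosomes and a p53 apoptosis effector, was at 11.94, 10.99 and 11.79 against 12.48, 13.60 and 11.76. Culture 2 was highest, culture 1 next, and culture 3 within the non-transgenic range. The difference was 1.04 ± 0.46 (limma adjusted p = 0.438), and 0.546 without transgenic culture 2. Pmaip1, which encodes the BH3-only protein Noxa, was at 11.46, 11.40 and 11.32 against 11.59, 12.97 and 11.38. Its difference of 0.58 ± 0.39 came almost wholly from culture 2, being 0.0891 without it. That culture also held the most leukocyte and macrophage marker signal, whose part in these values was not tested. Bbc3, which encodes the BH3-only protein Puma, lay below the filter on all 6 arrays, at 5.26 to 7.41.

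The differences of the other genes linked to cell death were no larger than 0.40. Pidd1, a death domain protein of caspase-2 activation, differed by 0.40 ± 0.35, and Aen, a p53-induced nuclease, by 0.28 ± 0.17. Phlda3, a repressor of the kinase Akt, differed by 0.21 ± 0.25, and Zmat3, an RNA-binding zinc finger protein, by 0.21 ± 0.21. For Phlda3 the highest of the 6 values was non-transgenic, 13.27 in culture 1. Ei24, a protein of the endoplasmic reticulum, differed by -0.09 ± 0.12 and turned positive with median-centred arrays. Apaf1, the scaffold of the apoptosome, differed by 0.01 ± 0.16 and turned negative with quantile normalization. None of these 6 had a limma adjusted p below 0.505.

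The metabolic targets split. Tigar, a phosphatase that lowers glycolytic flux, was at 11.11, 10.89 and 10.83 against 11.37, 11.61 and 11.12, with culture 3 level with the highest non-transgenic culture but still above it. The difference was 0.42 ± 0.21 (limma adjusted p = 0.453). Its dimmer probe sets differed by 0.32 ± 0.29 and, below the filter, by 1.20 ± 0.39, both without overlap. Sesn1, a sestrin that restrains growth signalling through mTORC1, was at 13.67, 13.64 and 13.63 without the transgene and at 13.29, 11.58 and 13.65 with it. Culture 2 lay -2.06 from the non-transgenic mean, culture 1 closer to it and culture 3 at it. All 4 Sesn1 probe sets gave this order, with differences of -0.80 to -0.999. On the probe set used, the -0.80 ± 0.47 became -0.174 without transgenic culture 2 (limma adjusted p = 0.505 with it).

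The 5 DNA repair and nucleotide supply genes had differences below 0, 3 of them only without median centring. Rrm2b, the p53-inducible ribonucleotide reductase subunit, was at 12.31, 12.64 and 12.48 against 11.92, 12.04 and 12.25, without overlap. The difference was -0.41 ± 0.17, a 1.33-fold lower level (limma adjusted p = 0.428), and all 4 of its probe sets had this sign. Only the probe set used separated the groups. On the dimmest one, below the filter, transgenic culture 2 was the highest of all 6 at 8.05. Xpc, the damage sensor of nucleotide excision repair, was at 10.16, 10.27 and 9.99 against 9.78, 9.02 and 10.42. Culture 2 was lowest and culture 3 highest of all 6. Its -0.40 ± 0.36 was -0.0404 without transgenic culture 2. Ddb2, its partner in damage recognition, differed by -0.16 ± 0.19, and Ercc5, the 3' endonuclease of the same pathway, by -0.18 ± 0.20. Ercc5 was at 11.59, 11.82 and 11.72 against 11.47, 11.29 and 11.83. Polk, a translesion polymerase, differed by -0.11 ± 0.23. The signs of these 3 turned with median-centred arrays.

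**Figure D3:**
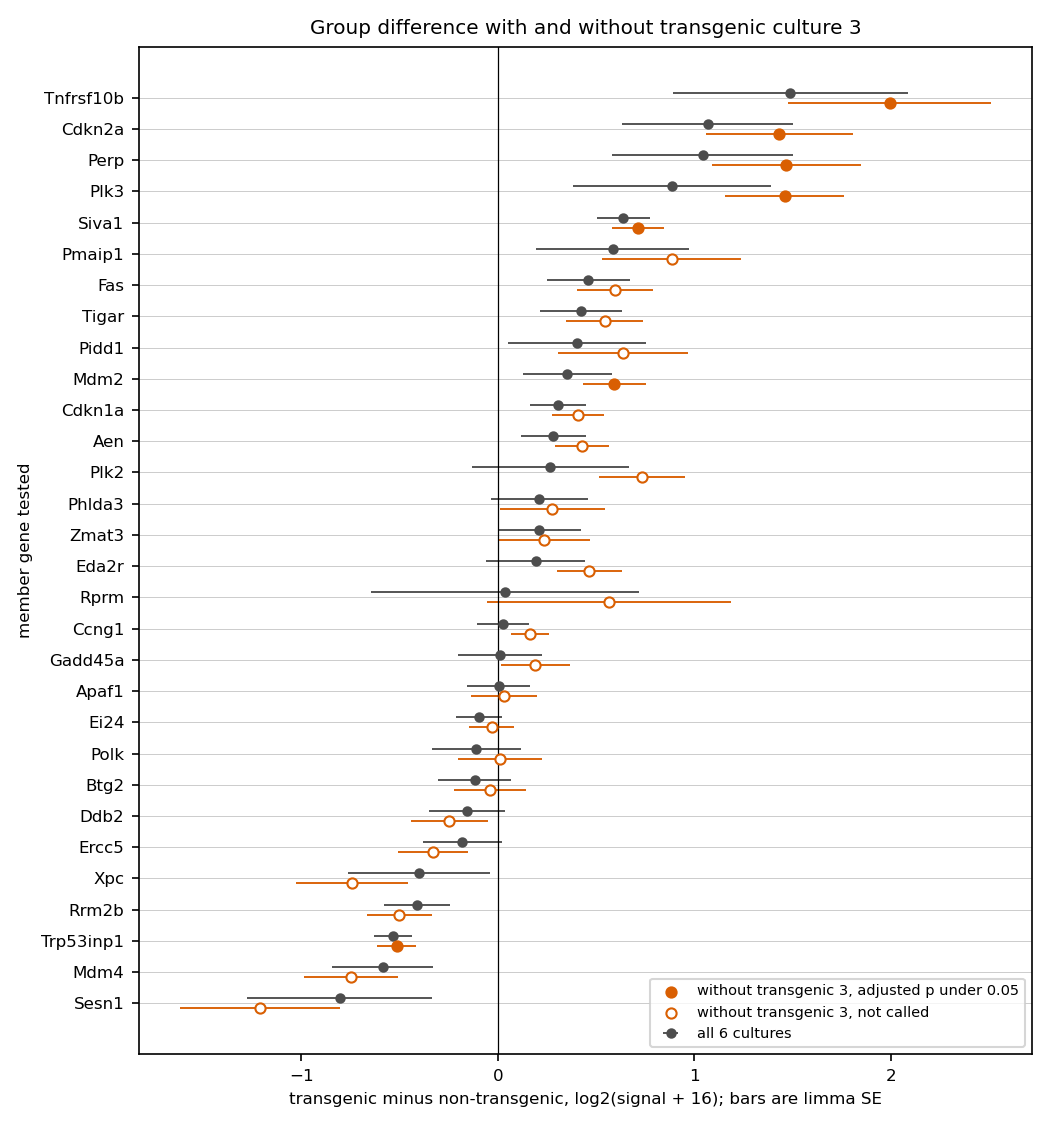
For each of the 30 tested genes the x axis gives the difference between the groups on the log2(signal + 16) scale with limma's SE, over all 6 cultures (grey) and without transgenic culture 3 (orange, filled where the adjusted p was under 0.05). This culture was the transgenic one most like the non-transgenic cultures, so leaving it out favours larger differences. Most differences move away from 0 without this culture, whereas Trp53inp1 is at -0.53 with and -0.51 without it, and Siva1 at 0.64 and 0.71.

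Without transgenic culture 3, which leaves 2 transgenic against 3 non-transgenic cultures, limma called 1649 of 11208 genes (14.7%) and 7 of the 30 p53 genes. Culture 3 was the transgenic array most like the non-transgenic ones, so leaving it out favours larger differences and smaller p. With any other 1 array left out, 0 genes were called. The 6 higher ones, against 6.88% of all genes, were Siva1 (0.71 ± 0.13), Plk3 (1.46 ± 0.30), Perp (1.47 ± 0.38), Tnfrsf10b (1.99 ± 0.52), Cdkn2a (1.43 ± 0.37) and Mdm2 (0.59 ± 0.16). Of these, Plk3 and Tnfrsf10b have the filter limit given above. The 1 lower, against 7.83% of all genes, was Trp53inp1 (-0.51 ± 0.10). The omitted culture itself lay at 0.49 for Siva1 and at -0.56 for Trp53inp1 relative to the non-transgenic mean. For Plk3 and Mdm2 it lay on the opposite side, at -0.26 and -0.13, and for Tnfrsf10b, Cdkn2a and Perp it was at 0.47, 0.34 and 0.19. Cdkn1a was at 0.41 ± 0.13 in this fit and was not called (limma adjusted p = 0.0754). Cultures 1 and 2 both exceeded every non-transgenic culture for 15 of 30 genes, against 22.8% of all tested genes, and both lay below for 6 of 30, against 27.4%. The 15 include Plk3, Tnfrsf10b and Pidd1, with the same filter limit. Of these 15 genes, culture 3 was above the non-transgenic range for 3, inside it for 7 and below it for 5.

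Other genes of the pathway, listed by role with earlier results of these data known, were read in the same fit. Of 38 tested further p53 targets 31 were higher and 7 lower, with a median of 0.28, and this stood at 30 of 38 and 0.365 without transgenic culture 3. For Epha2 and Trp53i11 the non-transgenic mean lay under the level filter, so they were tested only because the transgenic cultures were high. Of the other 36 targets 29 were higher, with a median of 0.21. At an unadjusted p under 0.05, 8 of the 38 were higher (6.47% of all genes), Trp53i11 among them, and 1 lower (5.02%). The higher ones included Ier3, an immediate early gene that affects survival, at 1.19 ± 0.29, Cgref1, a growth regulator, at 1.48 ± 0.38, and the antioxidant enzyme Gpx1 at 0.59 ± 0.19. Ier3 was at 12.01, 11.98 and 11.99 in the non-transgenic and at 13.59, 13.49 and 12.46 in the transgenic cultures. The lower one was Igfbp3, a binding protein of insulin-like growth factors, at -0.82 ± 0.29. Each of these 4 had a limma adjusted p of 0.428.

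Of 26 tested p53 regulators 10 were higher and 16 lower, with a median of -0.19 that turned to 0.0831 with median-centred arrays, and at -0.164 against all genes in both. Ppp1r13l had a non-transgenic mean under the level filter. Of the other 25 regulators 9 were higher, with a median of -0.21. The ubiquitin ligase Ube3a differed by -0.68 ± 0.22 and the deacetylase Sirt1, which acts on p53, by -0.76 ± 0.33, while Pml, which forms nuclear bodies that hold p53, differed by 0.74 ± 0.30. BCL2 family and caspase genes were near all genes, with 9 of 19 higher, a median of -0.02 and 0 at an unadjusted p under 0.05. That sign turned under quantile normalization (0.0559) and median centring (0.253). The 6 other genes named as CDK inhibitors had a median of -0.185, which turned to 0.0831 with median-centred arrays. Of these, Cdkn1b, which encodes p27, was lower by -0.48 ± 0.16 and Cdkn2c, which encodes p18, by -0.50 ± 0.19. Each had a limma adjusted p of 0.428. Both were without overlap, 2 of 6 wholly below, against 6.72% of all tested genes. Cdkn3, a phosphatase gene of mitotic cells in spite of its name, was at 8.79, 7.45 and 7.64 against 11.63, 12.19 and 8.46.

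Proliferation genes that p53 and p21 are known to repress lay higher in 24 of 24 tested, with a median of 1.502, and limma called 0 of them over all 6 cultures, with 9 higher at an unadjusted p under 0.05 (6.47% of all genes were). Their median level in transgenic cultures 1, 2 and 3 was 2.13, 2.71 and -0.11 relative to the non-transgenic mean, and 0.74, -0.31 and -0.35 in the non-transgenic cultures. The median over the 30 p53 genes in the same transgenic cultures was 0.20, 0.46 and -0.03, and that over the further p53 targets 0.43, 0.36 and 0.10. In transgenic cultures 1 and 2, Cdkn1a, Ccng1, Plk2 and Plk3 thus lay above the non-transgenic range together with the median of the proliferation genes. Mcm2, a subunit of the replication helicase, had the smallest p of that list at 1.40 ± 0.33 (limma adjusted p = 0.428). Without transgenic culture 3, limma called 24 of the 24 as higher, against 6.88% of all genes. With any other 1 array left out it called 0 of them. In 6 of the 24, namely Aurkb, Bub1, Foxm1, Nek2, Plk1 and Tyms, the non-transgenic mean lay under the level filter, so that they were tested only because the transgenic cultures were high. The other 18 were all higher too, with a median of 1.55.

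**Figure D4:**
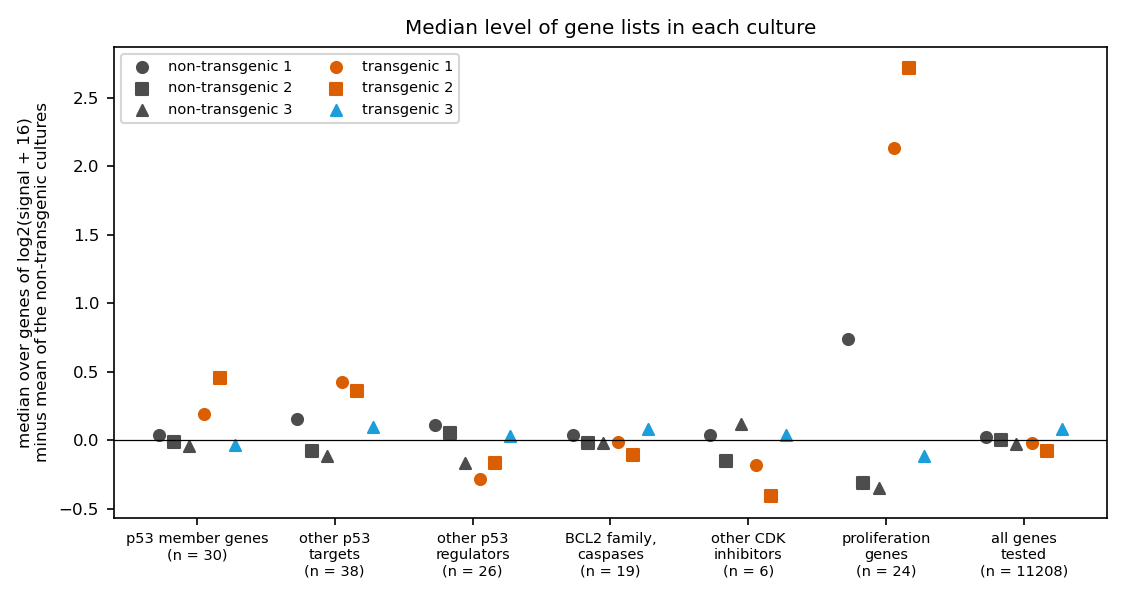
For each gene list and culture the y axis gives the median over the list's tested genes of log2(signal + 16) minus the mean of the non-transgenic cultures. Proliferation genes are at 2.13 and 2.71 in transgenic cultures 1 and 2 (orange) and at -0.11 in culture 3 (blue), with smaller shifts of the p53 genes (0.20, 0.46 and -0.03) in the same order.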

How the data were processed

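The authors deposited linear intensities, 1 for each of 45101 probe sets per array, from 6 single-colour arrays of amplified RNA (about 50 ng input), computed with MAS5 per the submitters' processing notes; version and genome build are not given in the sources used here. Their scaling was kept. Array annotation named 1 gene for 34945 probe sets, several for 932 (left unnamed) and none for 9160; symbols were updated by gene ID with RefSeq. Values were taken as log2(intensity + 16). The filter was a mean at or above the median of all non-control probe sets (7.717, a signal of 194). Groups were compared two-sided with limma 3.58.1 in R 4.3.3 (lmFit, eBayes with trend), Benjamini-Hochberg adjusted over all tested genes at 0.05. The p53 genes and lists were chosen with earlier results of these data known. By the rule set, genes given in full were Mdm2, Mdm4, Cdkn1a, genes whose groups did not overlap and the 6 smallest p per direction. Others were given by their difference, except that Plk2, Plk3 and Pmaip1 were given in full outside this rule. From each other list at most 3 genes per direction were named by smallest p; Cdkn3 was picked out after its values were seen. Alternatives covered pseudocounts, filters, scalings, probe set averaging, the variance trend, the replicate block and each array left out. The script was tested on simulated data. The number of arrays limits the precision.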

Additional observations from a re-analysis of the deposited data

How the results depend on the processing

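Directions and calls of the 30 tested p53 genes were recomputed under 15 alternatives. The count of called genes was 0 for all genes and for the p53 genes in every alternative but 1: without transgenic replicate 3 it was 1649 and 7, the range with any 1 array left out being 0 to 1649 and 0 to 7. The median over the p53 genes was 0.471 with median-centred arrays, by construction of the shift of all genes, and ran from 0.0248 to 0.342 with 1 array left out. With the median-centred arrays, tried on the other lists after seeing the data, the medians were 0.544 for further p53 targets, 0.0831 for regulators, 0.0831 for CDK inhibitors and 0.253 for BCL2 family and caspases. Single genes near 0 turned sign. With median-centred arrays these were Btg2 (0.152), Ddb2 (0.113), Ei24 (0.175), Ercc5 (0.0885) and Polk (0.159). With quantile normalization they were Apaf1 (-0.0248) and Gadd45a (-0.0115). With 1 array left out, the values ran for Apaf1 from -0.0657 to 0.0557, for Ccng1 from -0.0478 to 0.162, for Ddb2 from -0.246 to 0.0252, for Eda2r from -0.0109 to 0.466, for Gadd45a from -0.117 to 0.191, for Plk2 from -0.0825 to 0.733, for Polk from -0.263 to 0.0116 and for Rprm from -0.665 to 0.566. The cause of these turns was not tested. The replicate numbers were shared by the groups, but the labels give no pairing of the cultures. Deviations of same-numbered cultures correlated at 0.0421, -0.278 and -0.0336, which cannot settle whether they were paired. With the replicate number as a block 0 genes were called. The p53 genes with an unadjusted limma p under 0.05 then went from 5 to 4 of 30. Proliferation genes went from 9 to 18 of 24, against 9.97% of all genes with the block.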
